A study of Mus musculus with 6 samples.

Results

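A set of 35 genes that mark or serve astrocytes was followed in the pre-limbic cortex (PLc) of mice given saline or ketamine. Of the 35 genes named, 34 were found by their symbol in the deposited table, and the row of Dio2, which carries no symbol there, was found by its Ensembl identifier. All 35 averaged at least 10 normalized counts across the mice, and they stand among 16127 genes that passed this filter and 37620 genes listed. They were taken as a list of known astrocyte genes and not ranked by their difference between the groups. Earlier results of these data were known when the list was chosen.

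RNA was sequenced from the PLc, which lies on the medial side of the prefrontal cortex, with 1 library for each mouse. All mice were 9-week-old C57Bl/6 animals with no engineered allele named in the labels. Saline mice 1, 6 and 10 received saline vehicle and ketamine mice 3, 5 and 9 received ketamine at 30 mg/kg, an antagonist of the NMDA class of glutamate receptor, by intraperitoneal injection once daily for 5 days, and tissue was frozen 2 days later. The question put to these genes was whether their RNA differed between the groups. The authors' values are normalized counts, that is, reads per gene scaled by the library's size factor. Whole dissected tissue was used with no sorting of cells, so fewer astrocytes and less RNA per astrocyte cannot be told apart.

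Astrocytes take up glutamate released at synapses, convert it to glutamine and return the glutamine to neurons. They buffer potassium and water through channels and gap junctions, supply lipids and glycogen-derived fuel, and wrap blood vessels with endfeet. Gfap, their intermediate filament protein, is low in most astrocytes of cortical grey matter and high in those of white matter and at the brain surface, and it rises in reactive astrocytes, whereas Aldh1l1 and Sox9 mark astrocytes more evenly.

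The libraries held between 26273436 and 32643726 reads recovered from the normalized counts, and between 20598 and 21163 genes with a read. Every one of the 35 genes was found in every library, and the lowest value was 93.6 normalized counts, for Agt in saline mouse 6. In unsorted tissue this does not show which cells the reads came from. Together the genes took 0.899%, 0.854% and 1.17% of all normalized counts in the saline group (mice 1, 6 and 10), and in the ketamine group (mice 3, 5 and 9) the shares were 1.08%, 1.01% and 1.12%. The share was highest in saline mouse 10 and the groups overlapped. Per kilobase of the longest annotated transcript, the mean level in saline mice ran from 24170 normalized counts for Apoe, the main lipid carrier protein of brain, through 16590 for Glul and 6401 for Slc1a2, to 177 for the transcription factor Sox9. In the same 6 libraries, markers of other cell types and regions differed between mice, and saline mouse 10 and ketamine mice 3, 5 and 9 stood apart by such markers. These values are given beside the results they move with. Where a gene or list is given with 3 values for a group, they stand in the order of mice 1, 6 and 10 for saline and of mice 3, 5 and 9 for ketamine.

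No astrocyte gene passed the test. The groups were set against each other with limma, on log2(normalized count + 1), a scale that slightly understates the change of genes with few reads. At a Benjamini-Hochberg adjusted p under 0.05, limma called 0 of the 35 genes, against 0% of all genes tested, and the smallest adjusted p among them was 0.838. On the recovered reads, edgeR called 0 of the 35, against 0% of all genes, with a smallest adjusted p of 0.664. DESeq2, the package the authors used, also called 0 of the 35, against 1.13% of all genes, with a smallest adjusted p of 0.0793, for Fabp7. An unadjusted limma p under 0.05 was found for 2 of the 35, Fabp7 and Slc1a3, which is 5.71% against 5.81% of all genes. Likewise edgeR and DESeq2 each gave 2 unadjusted p values under 0.05, against 6.24% of all genes for edgeR and 6.55% for DESeq2. The groups did not overlap for 2 genes, Fabp7 and Slc1a3, both higher in ketamine, which is 5.71% of the list against 10.3% of all genes in either direction and 5.69% in this direction. In the other direction there were 0, against 4.66% of all genes. The shares that were higher are near those of all genes. In simulated reads with 200 genes differing 2-fold, limma and edgeR recovered 0 of them and DESeq2 101. The simulated reads held no shift of whole libraries with transcript length, which the real libraries show, as given below. In the real data limma did not call Slc35d3 either, a gene outside the list with a log2 fold change of 4.20 (adjusted p = 0.0922, limma). The lack of calls therefore does not show that changes are absent, and no size of change is set by it.

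More of the genes were on the higher side in ketamine, a direction that was not tested as a whole. Of the 35 genes, 27 had a log2 fold change above 0 and 8 below 0, against 47% of all genes above 0. The median log2 fold change was 0.11 for the list and -0.01 for all genes, and single genes ran from -0.25 for Slc1a2 to 1.32 for Fabp7. The genes of the list varied together between mice, so the count of 27 is not a count of independent results, and without saline mouse 6 it was 17.

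**Figure D1:**
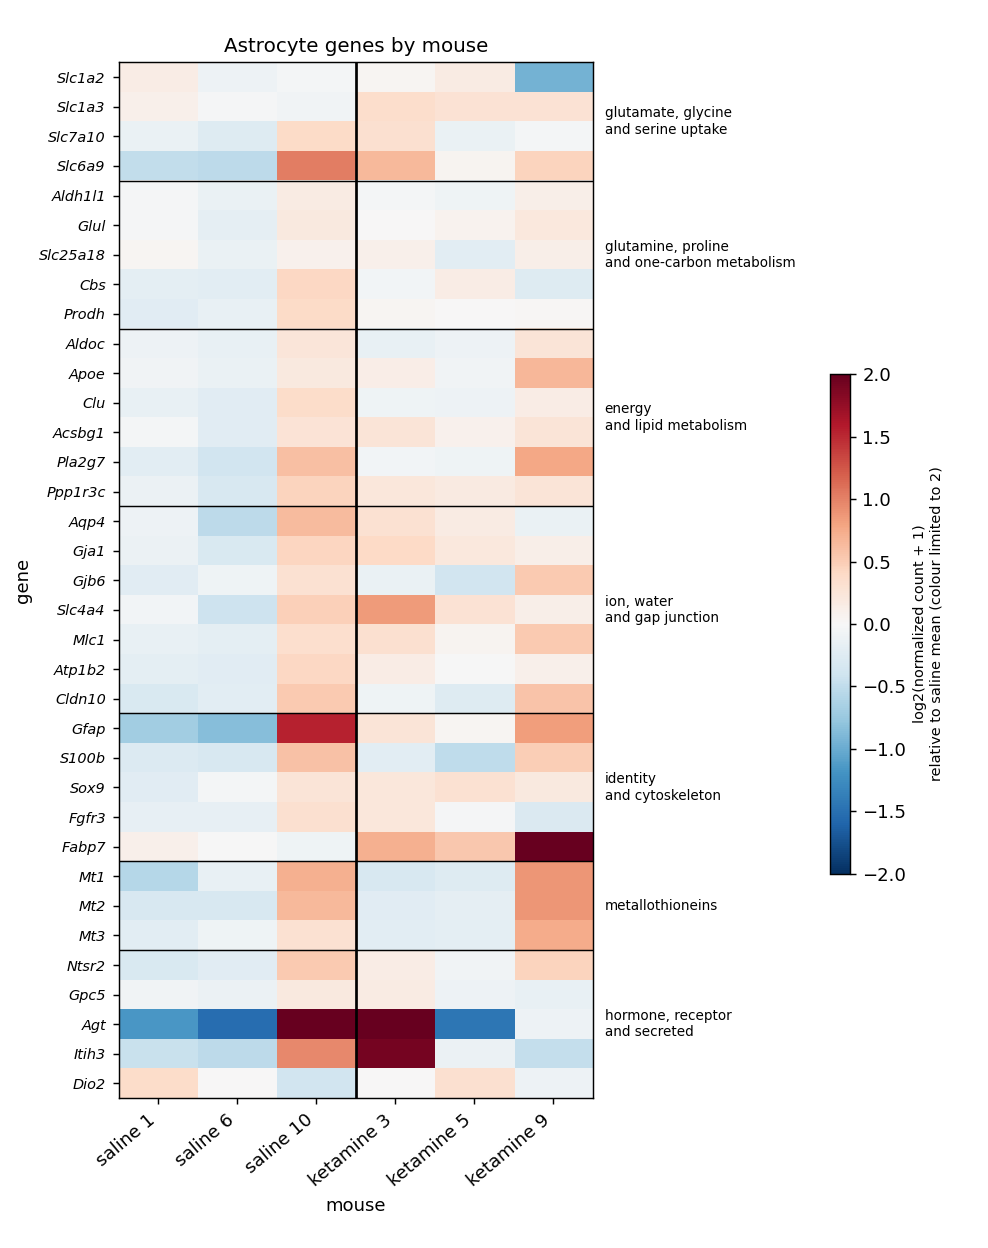
Each row is an astrocyte gene, grouped by role, and each column a mouse; colour gives log2(normalized count + 1) with the average saline value set to 0, limited to 2 in either direction. Saline mouse 10 was the highest of the 6 mice for 17 of the 35 genes and saline mouse 6 the lowest for 17.

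The saline mice differed widely from each other over much of the list, while for some genes, such as Slc1a2 and Fabp7, the ketamine mice spread more. Saline mouse 10 lay above both other saline mice for 31 of the 35 genes. It was the highest of all 6 mice for 17 of them, 48.6%, where it was the highest for 14.1% of all genes. Saline mouse 6 was the lowest of the 6 for 48.6% of the list, against 12.7% of all genes. Ketamine mouse 9 was the highest for 12 of the 35, 34.3%, against 29.4% of all genes. The mean of the 35 log2 values, with the saline average set to 0, was -0.19, -0.27 and 0.46 in the saline group and 0.23, -0.04 and 0.29 in the ketamine group. Thus the highest and the lowest mouse were both saline mice, and all 3 ketamine mice lay between them. The ratio of the highest to the lowest mouse was under 1.5 for 8 genes, between 1.5 and 2 for 15 and above 2 for 12.

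Oligodendrocyte markers moved with saline mouse 10. The 12 markers, among them the myelin gene Mbp, summed to 61772, 48562 and 412991 normalized counts in the saline group and to 176364, 114593 and 126343 in the ketamine group. The sum was thus highest in the same saline mouse, lowest in the other saline mice and in between in every ketamine mouse, and none of the 12 was at 0 in any mouse. The order of the extremes was that of the mean astrocyte level, highest in saline mouse 10 and lowest in saline mouse 6. The part of white matter in the astrocyte values was not tested. Markers of choroid plexus and ependyma, the lining of the ventricles, summed to 198, 328 and 3545 in the saline group and to 647, 300.1 and 837 in the ketamine group, also with the highest value in saline mouse 10. Of these markers Ccdc153, Tmem212 and Otx2 were at 0 in at least 1 mouse.

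Without saline mouse 10, 33 of the 35 genes were higher in ketamine, which is 94.3% against 47.7% of all genes. The groups then did not overlap for 17 genes, all higher in ketamine, which is 48.6% against 31.8% of all genes in either direction and 15.1% in this direction. The 17 were Gfap, Slc1a3, Gja1, Glul, Slc4a4, Sox9, Clu, Mlc1, Acsbg1, Ntsr2, Slc6a9, Fabp7, Mt2, Atp1b2, Pla2g7, Ppp1r3c and Prodh. Without that mouse limma still called 0 of the 35, with a smallest adjusted p of 0.251, for Gfap. The median log2 fold change was 0.33 without saline mouse 10, 0.02 without saline mouse 1 and 0.00 without saline mouse 6. Without ketamine mouse 9, 24 genes were higher in ketamine, against 48.9% of all genes. Ketamine mouse 9 on its own against the saline mice gave 26 genes above 0, against 50.1% of all genes, and 17 outside the saline range, which is where 68.8% of all genes lay. Whether the list leaned toward ketamine therefore rested on which saline mice were compared.

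**Figure D2:**
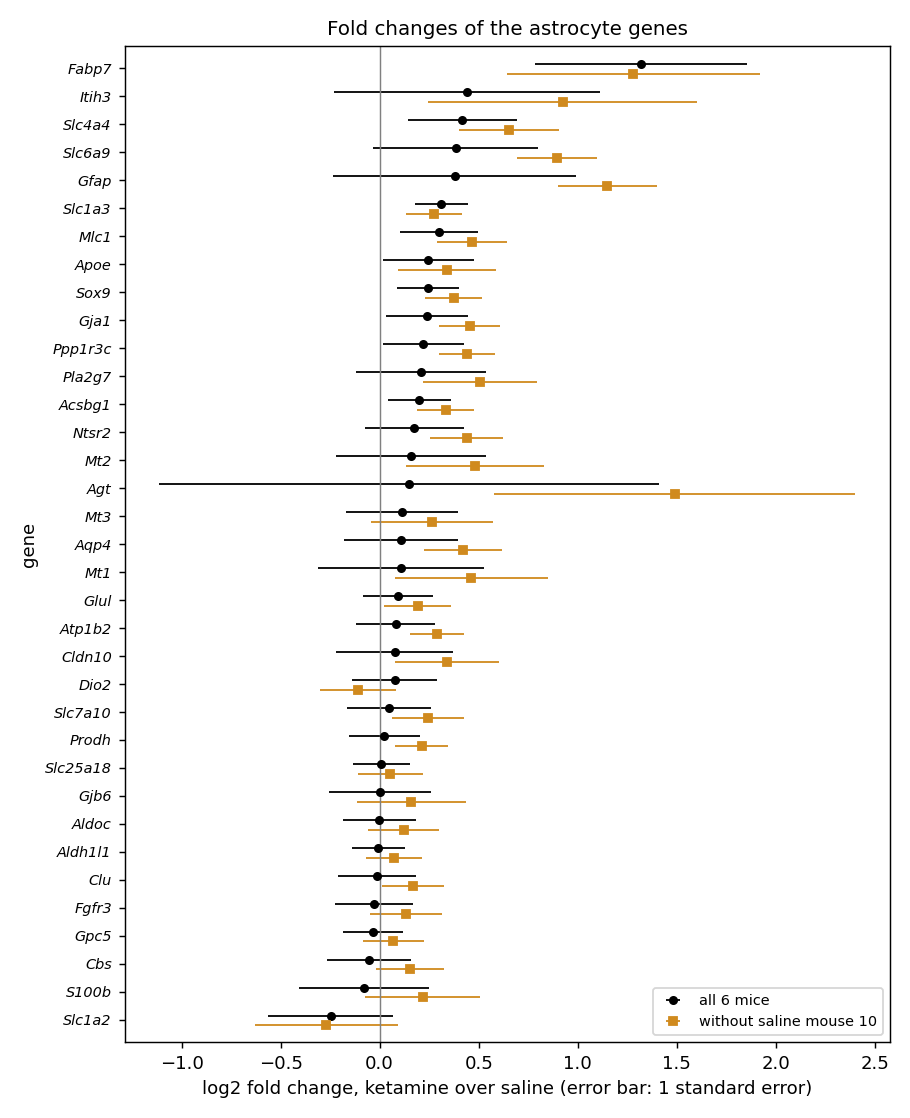
Points give the log2 fold change of each astrocyte gene, ketamine over saline, with an error bar of 1 standard error from limma, for all 6 mice in black and without saline mouse 10 in orange. Without that mouse 33 of the 35 points lie above 0, and none of the 35 passed the adjusted threshold in either comparison.

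The plasma membrane glutamate transporters Slc1a2 (GLT-1) and Slc1a3 (GLAST), which clear glutamate from the synaptic cleft, had different patterns over the mice. Slc1a3 (mm9 chr15:8584124-8660764, minus strand) stood at 16449, 15088 and 14556 normalized counts in the saline group and at 19559, 18816 and 18797 in the ketamine group. Every ketamine mouse lay above every saline mouse, and the ketamine mice were close together. The means were 15365 ± 976 in saline and 19057 ± 434 in ketamine (SD, n = 3 each), a ratio of 1.24. The log2 fold change was 0.31 ± 0.13 (SE), with a limma p of 0.0493 and an adjusted p of 0.860, and DESeq2 gave an adjusted p of 0.304. Leaving out each mouse in turn gave log2 fold changes between 0.27 and 0.36. An exact permutation test gave p = 0.1, the smallest that 3 mice against 3 can give.

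Slc1a2 (mm9 chr2:102498816-102630941, plus strand) stood at 81915, 68982 and 71772 normalized counts in the saline group and at 75877, 83363 and 38388 in the ketamine group. Ketamine mouse 9 alone was low, and the other ketamine mice lay within or above the saline range. The log2 fold change was -0.25 ± 0.31 (SE, adjusted p = 0.999, limma), and without ketamine mouse 9 it was 0.10. The ratio of Slc1a2 to Slc1a3, looked at after these values were seen and not tested, was 4.98, 4.57 and 4.93 in the saline group and 3.88, 4.43 and 2.04 in the ketamine group. All 3 ketamine ratios lay below the saline ratios, but Slc1a3 alone already split the groups, and no background share of such ratios was computed. The lowest ratio was that of ketamine mouse 9, in which long transcripts were low in general, as given below.

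Slc6a9, the glycine transporter GlyT1 that limits glycine at NMDA receptors, stood at 824, 805 and 2353 normalized counts in the saline group and at 1823, 1203 and 1584 in the ketamine group. Saline mouse 10 was above all others, and the other saline mice were below every ketamine mouse. Its log2 fold change was 0.38 ± 0.42 (SE, adjusted p = 0.999, limma), and 0.89 ± 0.20 (SE, adjusted p = 0.258) without saline mouse 10. Slc7a10, a transporter of serine and other small neutral amino acids, lay between 671 and 1048 normalized counts in the 6 mice, with saline mouse 10 highest. Exons of both genes overlap genes on the opposite strand, Slc7a10 by 726 bases with Lrp3 and Slc6a9 by 46 bases with B4galt2, 1429 and 375 with 2 identifiers of Ccdc24 and 511 with Gm17114. Lrp3 and B4galt2 averaged 2403 and 2655 normalized counts, and the others at most 9.71. No strand setting is stated for the counting, so reads in these stretches cannot be assigned with certainty.

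Glul, glutamine synthetase, the enzyme that turns glutamate into glutamine, stood at 45128, 40821 and 53011 normalized counts in the saline group and at 46210, 48089 and 53068 in the ketamine group. The groups overlapped, with a log2 fold change of 0.09 ± 0.18 (SE, adjusted p = 0.999, limma). Aldh1l1, a folate enzyme used as a broad astrocyte marker, was among the steadiest, at 1783, 1640 and 2017 in the saline group and 1757, 1694 and 1957 in the ketamine group, a log2 fold change of -0.01 ± 0.13 (SE, adjusted p = 0.999, limma). That sign turned under both other scalings and in edgeR, where the value was at most 0.0234. Slc25a18, a mitochondrial glutamate carrier, lay between 1195 and 1501, Cbs, an enzyme of cysteine synthesis, between 568 and 903, and Prodh, proline dehydrogenase, between 636 and 964. Of these 5 genes of glutamine, proline and one-carbon metabolism, 3 had a log2 fold change above 0, and none had groups that did not overlap.

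The genes of energy and lipid metabolism were 4 above 0 and 2 below 0, with overlapping groups in every case. Apoe stood at 31914, 30512 and 38072 normalized counts in the saline group and at 36587, 31902 and 52956 in the ketamine group, with ketamine mouse 9 highest. Pla2g7, which degrades platelet-activating factor, was highest in the same ketamine mouse, at 6271, followed by saline mouse 10, at 5516, with the other 4 mice between 2800 and 3503. Aldoc, an aldolase of glycolysis, lay between 19065 and 25280, Clu (clusterin) between 18306 and 27435, Acsbg1, an acyl-CoA synthetase, between 3203 and 4528, and Ppp1r3c, which directs a phosphatase to glycogen, between 725 and 1230.

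The 7 genes of ion, water and gap junction handling all had a log2 fold change above 0 and all had overlapping groups. Gja1 (connexin 43), the main astrocyte gap junction protein, stood at 4309, 3797 and 6321 normalized counts in the saline group and at 6206, 5412 and 5070 in the ketamine group. Saline mouse 10 was highest and the other saline mice lowest, with a log2 fold change of 0.24 ± 0.21 (SE, adjusted p = 0.999, limma). Aqp4, the water channel of the endfeet, stood at 3431, 2588 and 5709 in the saline group and at 4570, 4129 and 3367 in the ketamine group. It was also highest in saline mouse 10, but ketamine mouse 9 lay below saline mouse 1. Its log2 fold change was 0.11 ± 0.29 (SE, adjusted p = 0.999, limma). After the correction for transcript length given below, Aqp4 stood at 0.119 in ketamine mouse 9 and -0.161 in saline mouse 1. These are log2 values with the saline average set to 0. Slc4a4, a sodium bicarbonate cotransporter, was highest in ketamine mouse 3, at 8213, and lay between 3431 and 6309 in the other mice. After the same correction it was highest in ketamine mouse 9, at 0.75 against 0.708 in ketamine mouse 3. Mlc1, a membrane protein of the endfeet, lay between 3939 and 6486, Gjb6 (connexin 30) between 1047 and 1961, Atp1b2, a subunit of the sodium pump, between 10585 and 16449, and the claudin Cldn10 between 572 and 1055.

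Gfap (mm9 chr11:102748650-102762226, minus strand) varied more between saline mice than between groups. It stood at 2209, 1996 and 10462 normalized counts in the saline group and at 4293, 3685 and 6395 in the ketamine group. Saline mouse 10 was above every ketamine mouse, and the other saline mice were below every ketamine mouse. The means were 4889 ± 4828 in saline and 4791 ± 1422 in ketamine (SD, n = 3 each), and the log2 fold change was 0.38 ± 0.61 (SE, adjusted p = 0.999, limma). In edgeR and DESeq2, which weigh mean counts, it was -0.02 and -0.03, and without saline mouse 10 it was 1.15 ± 0.25 (SE, adjusted p = 0.251, limma). Gfap ranked the mice as the summed oligodendrocyte markers did at both ends, with saline mouse 10 highest and saline mouse 6 lowest. S100b, a calcium-binding protein that myelinating cells also express, lay between 2478 and 5288 with saline mouse 10 highest. Sox9 lay between 619 and 893 and the receptor Fgfr3 between 2345 and 3596.

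Fabp7 (mm9 chr10:57504687-57508256, plus strand), the brain fatty acid-binding protein of radial glia and of some adult astrocytes, had the highest fold change of the list. It stood at 543, 503 and 477 normalized counts in the saline group and at 833, 737 and 3344 in the ketamine group. The saline mice were close together, every ketamine mouse lay above them, and ketamine mouse 9 was far above the rest. The log2 fold change was 1.32 ± 0.53 (SE), with a limma p of 0.0413 and an adjusted p of 0.838. Without ketamine mouse 9 it was 0.63. The means were 507 ± 33.5 in saline and 1638 ± 1478 in ketamine (SD, n = 3 each). An exact permutation test gave p = 0.1, the smallest possible here.

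Markers of the olfactory bulb and of neuroblasts moved with Fabp7. The 5 markers of mitral and tufted cells, the projection neurons of the bulb, summed to 197, 274 and 253 normalized counts in the saline group and to 1464, 1198 and 8684 in the ketamine group. None of the 5 was at 0 in any mouse, and the order of the ketamine mice was that of Fabp7. The 7 markers of neuroblasts and progenitors summed to 2038, 1997 and 2113 in the saline group and to 3796, 4028 and 6707 in the ketamine group, again with ketamine mouse 9 highest. Striatal projection neuron markers, 10 genes, were high in the other ketamine mice, with sums of 8366, 8161 and 6456 in the saline group and 58175, 29046 and 8241 in the ketamine group. The 7 markers of cortical excitatory neurons were all on the lower side in ketamine, with sums of 190180, 178025 and 142446 in the saline group and 90689, 151433 and 104089 in the ketamine group. Slc1a3, which neural progenitors also express, shared the split between the groups with the bulb and neuroblast sums. It did not share their order within the ketamine group. Slc1a3 stood there at 19559, 18816 and 18797, lowest in ketamine mouse 9, where both sums were highest. The part of tissue from outside the PLc in the values of Fabp7 and Slc1a3 was not tested.

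**Figure D3:**
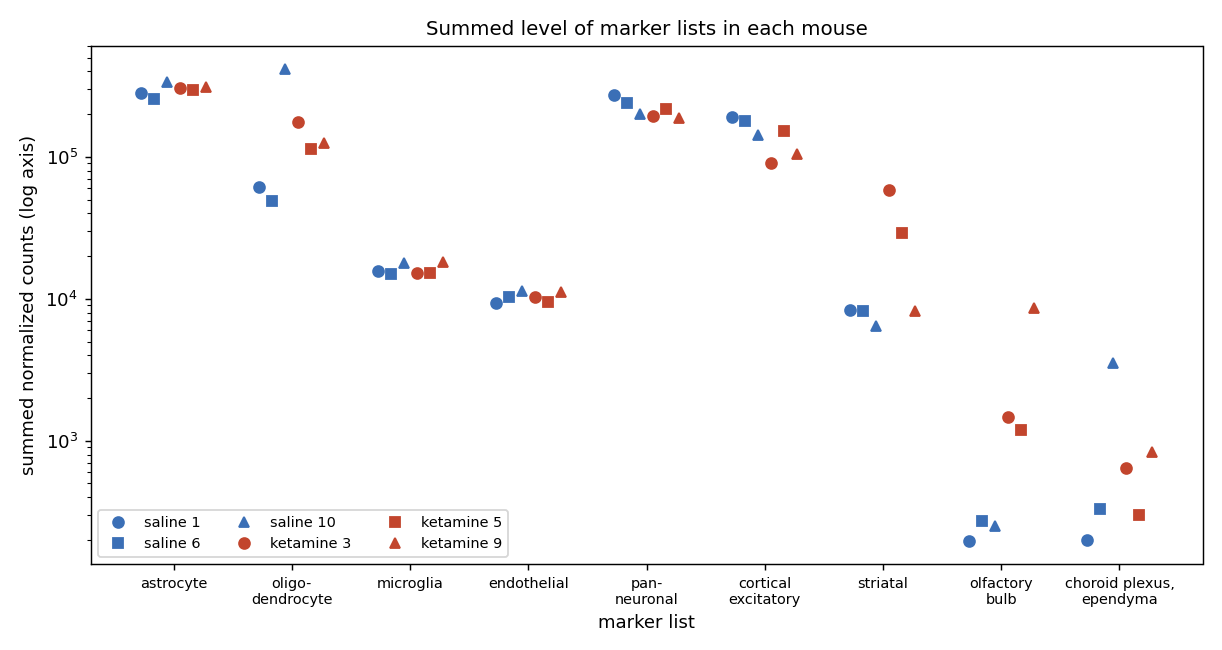
Summed normalized counts (log axis) of the 35 astrocyte genes and of 8 marker lists in each mouse, blue for saline and red for ketamine, with a symbol for each mouse. Oligodendrocyte and ependymal markers were highest in saline mouse 10 and olfactory bulb markers in ketamine mouse 9, while the astrocyte sum stayed between 255938 and 338698.

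The metallothioneins Mt1, Mt2 and Mt3 bind zinc and copper. Mt1 and Mt2 are induced by metals and glucocorticoids through elements near their start sites, and Mt3 is the brain form with little induction. The 3 genes lie within 27719 bases of mm9 chr8:96676507-96704225, all on the plus strand. The 250 bases before each RefSeq start site are shown (GRCm38.p6, plus strand: Mt1 chr8:94178839-94179088, Mt2 chr8:94172368-94172617, Mt3 chr8:94152357-94152606). Matches to the core of the metal response element, TGCGCNC or TGCACNC on either strand, are in capitals (the last match in Mt2 lies on the minus strand).
Mt1: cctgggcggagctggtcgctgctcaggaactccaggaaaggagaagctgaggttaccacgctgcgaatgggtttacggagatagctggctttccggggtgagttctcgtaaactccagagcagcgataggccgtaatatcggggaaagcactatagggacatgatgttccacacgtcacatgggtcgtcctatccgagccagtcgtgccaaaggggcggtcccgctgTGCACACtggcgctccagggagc
Mt2: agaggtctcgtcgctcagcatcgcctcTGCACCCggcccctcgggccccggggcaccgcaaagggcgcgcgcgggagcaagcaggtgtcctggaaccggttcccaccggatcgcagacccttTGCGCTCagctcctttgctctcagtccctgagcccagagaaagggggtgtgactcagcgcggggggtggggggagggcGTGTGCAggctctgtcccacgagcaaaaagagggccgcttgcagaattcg
Mt3: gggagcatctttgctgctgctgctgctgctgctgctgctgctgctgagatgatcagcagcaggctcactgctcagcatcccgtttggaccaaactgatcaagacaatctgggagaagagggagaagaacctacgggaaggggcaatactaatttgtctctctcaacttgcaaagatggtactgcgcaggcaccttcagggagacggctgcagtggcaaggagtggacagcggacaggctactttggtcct
In the whole RefSeq window, which runs on for 50 bases past the start, Mt1 held 3 matches, Mt2 held 4 and Mt3 held 1. Of these, 1 for Mt1, 3 for Mt2 and 0 for Mt3 lie in the bases shown, and the rest lie past them. Of 32851 mouse promoters of the same length in this table, 25.7% held at least 1 match and 1.97% at least 3. Of the 31 astrocyte genes with a promoter there, 11 held a match, and Mt1 and Mt2 were those with at least 3. The short core occurs by its letters alone in many promoters, and a match here is a description of sequence.

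Mt1 stood at 2191, 2936 and 5327 normalized counts in the saline group and at 2601, 2729 and 6014 in the ketamine group. Mt2 stood at 1500.1, 1507 and 2946 in the saline group and at 1600.4, 1663 and 3483 in the ketamine group. Mt3 stood at 4933, 5378 and 7063 in the saline group and at 4948, 5016 and 9563 in the ketamine group. In each group 1 mouse was high for all 3 genes, saline mouse 10 and ketamine mouse 9, and the other 4 mice lay close together. The log2 fold changes were 0.11 ± 0.42 for Mt1, 0.16 ± 0.38 for Mt2 and 0.11 ± 0.28 for Mt3 (SE, adjusted p = 0.999 for each, limma). Without ketamine mouse 9 all 3 turned, to -0.29, -0.21 and -0.20. Mt1 and Mt2 are close relatives, so reads that fit both could be split or lost in counting. In a list of 11 other genes of metal and glucocorticoid response, 8 had a log2 fold change above 0 and 3 below, with a median of 0.07 and 0 called by limma, edgeR or DESeq2, and 1 unadjusted p under 0.05 by limma, 1 by DESeq2 and 0 by edgeR, against 5.81%, 6.55% and 6.24% of all genes. The gene by limma was Zbtb16, a glucocorticoid-induced transcription factor, at 1321, 966 and 1151 in the saline group and 514, 1061 and 366 in the ketamine group, which overlapped. Slc30a1, the zinc exporter induced by the metal-sensing factor Mtf1, stood at 1227, 1276 and 1300.2 in the saline group and at 1470.2, 1342 and 1468 in the ketamine group, with no overlap (log2 fold change 0.17 ± 0.12, SE, adjusted p = 0.999, limma). Slc30a1 was the 1 gene of the 11 without overlap. This is 9.09%, against 10.3% of all genes in either direction and 5.69% higher in ketamine. Cdkn1a, a cell cycle inhibitor, stood at 497, 573 and 267 in the saline group and at 391, 551 and 1322 in the ketamine group, with ketamine mouse 9 highest.

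Transcript length moved with the metallothioneins, Fabp7 and Slc1a2 in ketamine mouse 9. A deviation is the log2 value of a gene in a mouse minus its median over the other 5 mice. In ketamine mouse 9 the median deviation of all genes fell with the length of the longest annotated transcript, from 0.43 under 1000 bases to -0.73 above 8000 bases. Spearman's rho between deviation and length was -0.49 over 16093 genes and -0.72 over the 35 astrocyte genes in that mouse, against 0.41 and 0.44 in ketamine mouse 5 and between -0.31 and 0.27 for both in the other mice. These are correlations across genes of the same library, given as a description. The 4 astrocyte genes under 1000 bases, the metallothioneins and Fabp7, deviated in ketamine mouse 9 by 1.14 for Mt1, 1.12 for Mt2, 0.93 for Mt3 and 2.62 for Fabp7, more than the median of their length class. Slc1a2, with a transcript of 11595 bases, deviated by -0.98, against -0.73 for its class. With the median deviation of 20 length bins removed from each library, Slc1a3 had a log2 fold change of 0.34 (adjusted p = 0.511, limma) and Fabp7 of 1.30 (adjusted p = 0.521, limma), and that of Slc1a2 was -0.16. Those of Mt1, Mt2 and Mt3 were 0.08, 0.13 and 0.09. The list then had 29 genes above 0, a median of 0.13, and 0 called. Slc1a3 and Fabp7 again had an unadjusted p under 0.05 and groups that did not overlap, 2 of 35 against 12.7% of all genes, or 6.75% higher in ketamine. All RNA integrity numbers were above 8 per the labels, and values for single libraries are not given.

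**Figure D4:**
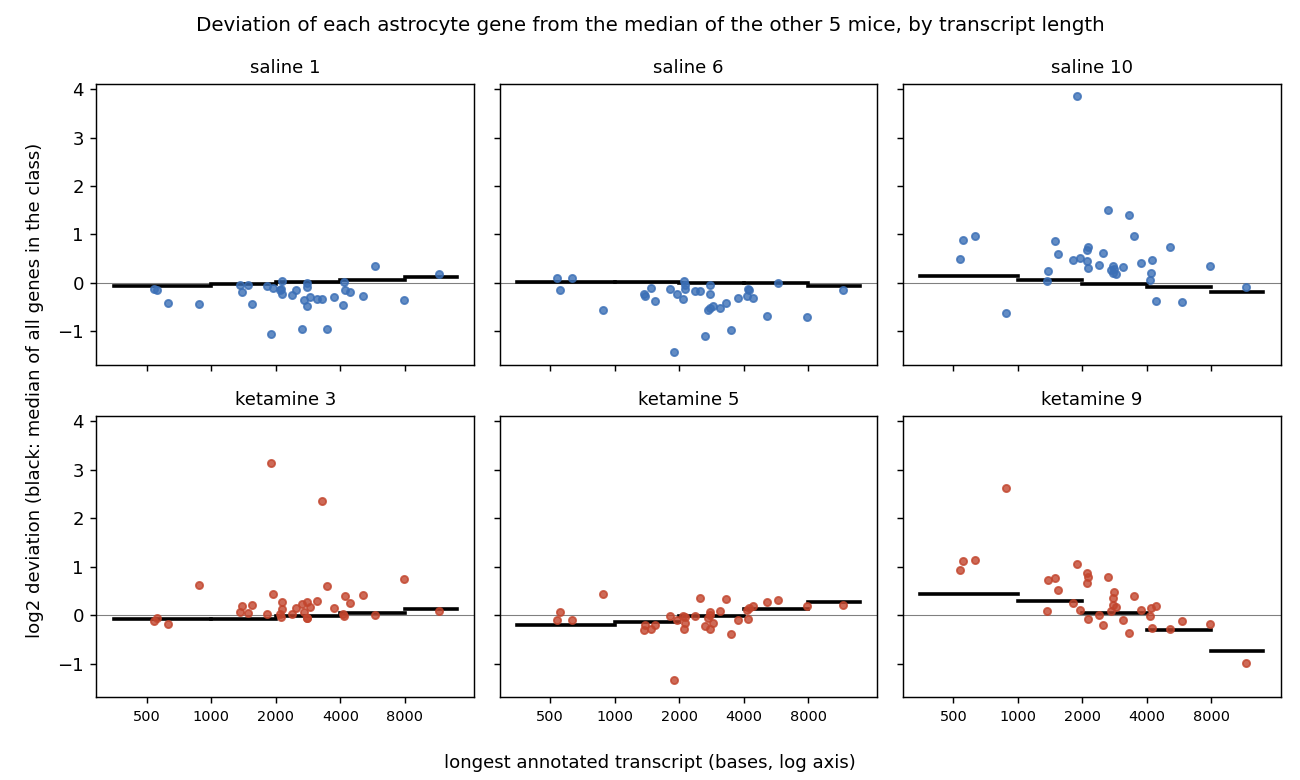
Each panel is a mouse. Points are the 35 astrocyte genes, placed by the length of the longest annotated transcript (log axis, bases) and by the log2 deviation from the median of the other 5 mice, and black lines are medians of all genes in 5 length classes. In ketamine mouse 9 both the points and the lines fall from short to long transcripts, from 0.43 to -0.73 for all genes.

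Among the hormone, receptor and secreted genes, Agt and Itih3 had the widest spread between mice. Agt, the angiotensin precursor, stood at 122, 93.6 and 1764 normalized counts in the saline group and at 1085, 99.7 and 254 in the ketamine group, a ratio of 18.8 between the highest and lowest mouse. It was high in 1 mouse of each group, saline mouse 10 and ketamine mouse 3, and its log2 fold change was 0.15 ± 1.26 (SE, adjusted p = 0.999, limma). Itih3, a hyaluronan-binding secreted protein, was high in the same mice, at 414, 392 and 1097 in the saline group and at 2128, 521 and 403 in the ketamine group, with a log2 fold change of 0.44 ± 0.67 (SE, adjusted p = 0.999, limma). Without ketamine mouse 3 it was -0.29, and that of Agt was -0.77. The neurotensin receptor Ntsr2 lay between 1830 and 3251, the glypican Gpc5 between 1147 and 1462, and Dio2, the deiodinase that makes active thyroid hormone, between 1867 and 3123. Dio2 was 1 of 3 genes of the list for which saline mouse 10 was the lowest of the 6.

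**Figure D5:**
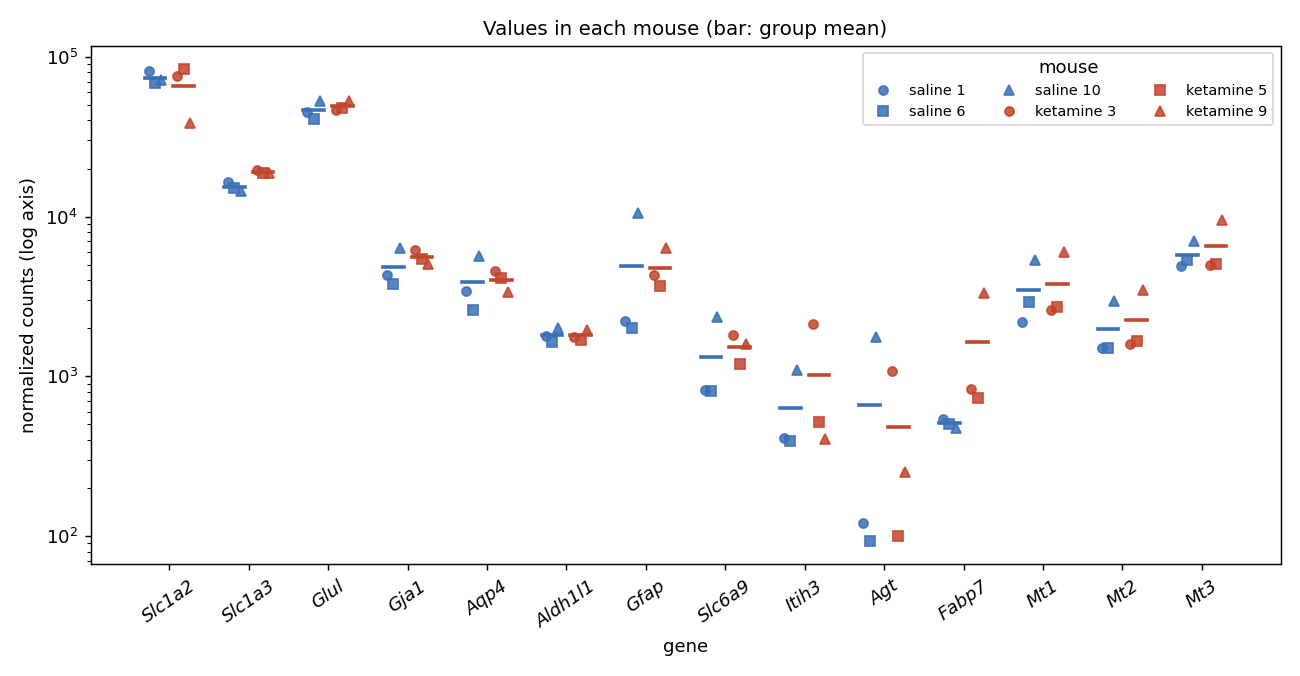
Normalized counts (log axis) of 14 astrocyte genes, with a point for each mouse and a bar at the mean of each group, blue for saline and red for ketamine. For Slc1a3 and Fabp7 the ketamine points lie above all saline points. For Gfap, Slc6a9, Agt and Itih3 saline mouse 10 is far above the other saline mice.

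Other genes of astrocytes were read from lists that hold none of the 35, though Slc38a3, Hepacam and Kcnj10 each stand in more than 1 of these lists. Of 35 other astrocyte-enriched genes, 28 had a log2 fold change above 0 and 7 below 0, with a median of 0.11, and limma, edgeR and DESeq2 each called 0. An unadjusted p under 0.05 was found for 5 of the 35 by each tool, against 5.81% of all genes by limma, 6.24% by edgeR and 6.55% by DESeq2. The groups did not overlap for 6, all higher in ketamine, which is 17.1% against 5.69% of all genes in this direction. The 3 with the smallest p were Id4, Hes5 and Bmpr1b. Id4, an inhibitor of differentiation factors, stood at 1089, 1337 and 1658 in the saline group and at 2567, 1967 and 2178 in the ketamine group, a log2 fold change of 0.73 ± 0.19 (SE, adjusted p = 0.494, limma, and 0.0907, DESeq2). Hes5, a Notch target of progenitors and astrocytes, stood at 400.4, 472 and 304 in the saline group and at 564, 635 and 791 in the ketamine group, a log2 fold change of 0.77 ± 0.21 (SE, adjusted p = 0.569, limma, and 0.0998, DESeq2). Bmpr1b, a receptor for bone morphogenetic proteins, stood at 623, 594 and 720.4 in the saline group and at 924, 982 and 752 in the ketamine group (log2 fold change 0.45 ± 0.16, SE, adjusted p = 0.732, limma). The others without overlap were Sox2, a progenitor transcription factor, the glutamine transporter Slc38a3 and the NMDA receptor subunit Grin2c, named after their values were seen. Id4, Hes5 and Sox2 are also expressed by neural progenitors, whose summed markers did not overlap between the groups and were higher in ketamine, and the part of such cells was not tested.

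Of 13 genes of the glutamate-glutamine cycle outside the 35, 5 had a log2 fold change above 0 and 8 below, with a median of -0.03 and 0 called by limma, edgeR or DESeq2. Each tool gave an unadjusted p under 0.05 for 2 of the 13, against 5.81% of all genes by limma, 6.24% by edgeR and 6.55% by DESeq2. Gls2, a glutaminase of neurons and other cells, was lower in every ketamine mouse, at 740.5, 834 and 824 in the saline group and 503, 663 and 566 in the ketamine group (log2 fold change -0.48 ± 0.15, SE, adjusted p = 0.675, limma). Slc38a3, which exports glutamine from astrocytes, stood at 1956, 1779 and 1821 in the saline group and 2171, 2263 and 3484 in the ketamine group (log2 fold change 0.48 ± 0.20, SE, adjusted p = 0.851, limma). Aldh4a1, an enzyme of proline breakdown, stood at 684, 766 and 740.1 in the saline group and 868, 849 and 910.1 in the ketamine group (log2 fold change 0.26 ± 0.12, SE, adjusted p = 0.901, limma). The groups of Got2, a mitochondrial aminotransferase named after its values were seen, did not overlap either, lower in ketamine, so that 4 of the 13, 30.8%, did not overlap, 2 in each direction, against 10.3% of all genes.

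Reactive astrocyte genes gave no call. Of 27 listed, 20 passed the filter, 13 had a log2 fold change above 0 and 7 below, the median was 0.14, and limma, edgeR and DESeq2 called 0, with 1 unadjusted p under 0.05 by each, against 5.81%, 6.24% and 6.55% of all genes in the same order. By limma it was Ggta1, a galactosyltransferase, at 108, 111 and 123 in the saline group and 140, 166 and 184 in the ketamine group (log2 fold change 0.51 ± 0.18, SE, adjusted p = 0.776, limma). Aspg, an asparaginase, stood at 65.1, 59.8 and 54.9 in the saline group and 43.1, 32.0 and 57.1 in the ketamine group. The cytokine Clcf1 stood at 19.2, 45.4 and 26.4 in the saline group and 40.1, 32.0 and 51.7 in the ketamine group. Both overlapped between the groups. Stat3, a transcription factor of astrocyte reactivity that was also named after its values were seen, stood at 1347, 1357 and 1346 in the saline group and 1513, 1501 and 1444 in the ketamine group, without overlap (log2 fold change 0.14 ± 0.11, SE, adjusted p = 0.999, limma). Ggta1 and Stat3 were the 2 of the 20 without overlap, both higher in ketamine. This is 10% of the 20, against 10.3% of all genes in either direction and 5.69% in this direction. Cxcl10, Lcn2 and Slc10a6 were at 0 in at least 1 mouse. Of 8 genes of the endfoot scaffold, 4 had a log2 fold change above 0 and 4 below, with a median of 0.01, 0 called by limma, edgeR or DESeq2 and 0 with an unadjusted p under 0.05. Dmd, dystrophin, stood at 2414, 2009 and 1830 in the saline group and 1954, 2298 and 1160 in the ketamine group. It was lowest in ketamine mouse 9, in which long transcripts were low in general, as given above. Sntb1, a syntrophin, stood at 51.7, 25.1 and 64.8 in the saline group and 121, 69.6 and 27.2 in the ketamine group. Summed markers of microglia, between 14918 and 18089, and of endothelial cells, between 9422 and 11281, overlapped between the groups. So did those of oligodendrocyte precursors, between 6299 and 11484, of mural and leptomeningeal cells, between 20325 and 49424 with ketamine mouse 9 highest, and of neurons in general, between 187489 and 275194.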

How the data were processed

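RNA was measured in the PLc of 6 mice, 3 saline and 3 ketamine, grouped by the treatment in the labels. The authors aligned 100 bp paired-end reads to mm9 with TopHat2 2.0.11, counted them per gene with HTSeq and divided them by DESeq2 size factors; the deposited signal is these normalized counts. Annotation and strand setting are not given in the sources used here. Whole reads were recovered for 100% of values (within 0.005 of a whole read), 26273436 to 32643726 per library; counts this deep leave little counting error, so precision is set by the 3 mice per group. All 6 columns were used.

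Log2(normalized count + 1) was compared by limma 3.58.1 (R 4.3.3, trended prior variance) in 16127 genes with a mean of at least 10, two-sided, with Benjamini-Hochberg adjustment at 0.05; unadjusted p values are those of the same fit. edgeR 4.0.16 and DESeq2 1.42.0 were run on the recovered reads. Other pseudocounts, filters and scalings, no trend, each mouse left out, and ketamine mice 3 and 5 left out were also tried; a correction for transcript length was added after seeing the data. In simulated reads where 200 of the 16127 genes differed 4-fold, 82.5% were recovered by limma, with 12 false calls. At 2-fold it recovered 0 and DESeq2 101 with 54 false. The simulated reads held no shift of whole libraries with transcript length. Coordinates and transcript lengths are from GENCODE M1 (mm9), promoters from RefSeq.

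The astrocyte genes and all lists were chosen with earlier results of these data known. Values in every mouse are given for Gfap, Aqp4, Slc1a2, Slc1a3, Aldh1l1, Gja1, Glul, Mt1, Mt2 and Mt3, for genes with a limma p under 0.05 or groups that did not overlap, for the 5 with the highest ratio between mice, and for the 3 genes with the smallest p of each other astrocyte, glutamate or response list. Marker lists of other cells are given as sums. A gene that this rule would name is not reported here. The study's imaging, recordings and behavioural tests were not used here.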

Additional observations from a re-analysis of the deposited data

How the results depend on the processing

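No paired analysis was possible because the groups share no mouse numbers. No astrocyte gene was called under any of the 17 alternatives. Over all genes, DESeq2 called 182, and leaving out each mouse gave 0 to 1. The number of astrocyte genes higher in ketamine, 27, was 17 to 33 with each mouse left out (17 without saline mouse 6). The number without overlap, 2, was 2 to 17 with each mouse left out (17 without saline mouse 10) and 17 without ketamine mice 3 and 5, where a single ketamine mouse is compared and 68.8% of all genes do not overlap. The median log2 fold change of the list was -0.0011 to 0.333 with each mouse left out. Of the 35 signs, 12 held under all alternatives, Slc1a3 and Fabp7 among them. Single genes turned as follows on the log2 scale, and the causes were not tested. With edgeR and DESeq2, Gfap was -0.0218 and -0.0302 and Agt -0.453 and -0.46; Aldh1l1 was 0.00806 with edgeR, 0.000589 with recomputed size factors, 0.0234 with upper-quartile scaling and 0.0228 after the length correction. Without ketamine mice 3 and 5, Aqp4 was -0.137, Aldh1l1 0.115, Agt -0.103 and Itih3 -0.479. With each mouse left out, ranges were -0.0451 to 1.15 for Gfap, -0.15 to 0.421 for Aqp4, -0.456 to 0.104 for Slc1a2, -0.0757 to 0.0737 for Aldh1l1, -0.286 to 0.463 for Mt1, -0.206 to 0.482 for Mt2, -0.2 to 0.275 for Mt3, -0.772 to 1.49 for Agt and -0.294 to 0.924 for Itih3. The 3 mice per group, not read depth, limit these comparisons, and an exact permutation test cannot go below 0.1.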

Other observations

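Agt belonged to a set of 17 genes, among the 16127 tested, whose values in saline mouse 10 and ketamine mouse 3 were each at least 4 times those of every other mouse. The set was found by looking for this pattern after the values of Agt were seen, and it was not tested. The other pairs of mice had between 0 and 14 such genes, the 14 in ketamine mice 3 and 5. In the order saline mice 1, 6 and 10 then ketamine mice 3, 5 and 9, Dlk1, a Notch ligand relative, stood at 10.5, 9.65, 761, 1845, 115 and 31.7 normalized counts. Prlr, the prolactin receptor, stood at 11.5, 14.5, 85.7, 453, 16.0 and 5.44 in the same order. Irs4, an insulin receptor substrate, stood at 2.87, 1.93, 40.6, 781, 8.47 and 3.63. Ccdc153, a gene of ciliated cells, stood at 0.96, 1.93, 98.8, 54.8, 0 and 3.63. Lhx1, a transcription factor of developing neurons, stood at 0, 0, 41.7, 33.3, 3.76 and 5.44. The set thus crossed the groups, with 1 saline mouse and 1 ketamine mouse high and the other 4 mice near or at 0 for several genes.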
